A study of Mus musculus with 12 samples.

Results

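The Fos and Jun family supplies the protein subunits of the transcription factor AP-1. Its 7 genes, Fos, Fosb, Fosl1, Fosl2, Jun, Junb and Jund, were taken as every row of the deposited transcript table that carries one of these symbols. They account for 7 of the 52169 gene symbols and for 43 of the 189660 transcripts, of which Junb has 12, Jun 10, Fos 7, Fosl2 5, and Fosb, Fosl1 and Jund 3 each. Each gene was followed by its top transcript, the most counted one on average, and every transcript of Fosb and Fosl2 was followed as well.

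RNA was sequenced from striatal punches of female C57BL/6J mice in which the dopamine fibres of the right hemisphere had been destroyed by 6-OHDA, a neurotoxin taken up by catecholamine neurons, injected into the medial forebrain bundle (3 µg/µl in 1 µl) after desipramine (25 mg/kg). After 2 weeks the mice received L-DOPA, the precursor of dopamine, at 10 mg/kg with 7.5 mg/kg of benserazide, either once (acute) or daily for 9 days (chronic), and were killed 1 hour after their final dose. The 4 groups are the lesioned and the unlesioned striatum under acute and under chronic L-DOPA, with 3 libraries each. No group without L-DOPA and no group of unoperated mice was analysed here, so the unlesioned striatum is that of lesioned, L-DOPA treated mice. The sources used here do not say how many mice stand behind a library, and p-values measure the spread between these libraries only, which may be technical.

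Fos proteins do not bind DNA as homodimers but pair with a Jun protein through a leucine zipper, whereas Jun proteins can also pair among themselves. Fos, Fosb, Jun and Junb are immediate early genes, whose transcription starts within minutes of a stimulus and needs no new protein. In striatal neurons they respond to dopamine D1 receptor signalling, and FosB with its truncated form ΔFosB is a classic marker of repeated L-DOPA or psychostimulant exposure.

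Among the short sequences known to drive these genes are the cAMP response element and its core TGACG, bound by CREB, and in Jun the AP-1 like sites TGACATCA and TTACCTCA. The 250 bases before the start of each top transcript (mm9) were searched on both strands for these letters, for the full element TGACGTCA, for the AP-1 site TGACTCA and for the CArG box. TGACG lies inside TGACGTCA, so these matches can overlap. The promoters with a match are printed because they belong to 4 genes with a large response below, 5′ to 3′ on the gene's strand, with the matched letters in capitals.

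Fos, chr12:86814590-86814839, plus strand: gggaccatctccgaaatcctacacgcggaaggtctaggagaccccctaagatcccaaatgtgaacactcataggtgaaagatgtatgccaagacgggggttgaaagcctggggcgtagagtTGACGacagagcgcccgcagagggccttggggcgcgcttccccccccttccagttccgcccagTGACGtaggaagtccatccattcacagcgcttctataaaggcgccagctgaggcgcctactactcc
Fosb, chr7:19895395-19895644, minus strand: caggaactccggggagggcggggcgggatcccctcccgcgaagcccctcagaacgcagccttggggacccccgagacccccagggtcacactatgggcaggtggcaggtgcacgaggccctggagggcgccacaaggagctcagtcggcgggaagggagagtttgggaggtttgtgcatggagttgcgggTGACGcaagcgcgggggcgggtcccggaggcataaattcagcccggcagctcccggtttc
Jun, chr4:94718914-94719163, minus strand: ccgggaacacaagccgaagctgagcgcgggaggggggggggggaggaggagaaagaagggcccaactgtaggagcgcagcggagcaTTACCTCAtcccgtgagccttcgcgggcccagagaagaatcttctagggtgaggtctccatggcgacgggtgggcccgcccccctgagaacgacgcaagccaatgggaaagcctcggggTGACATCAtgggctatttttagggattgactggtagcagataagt
Junb, chr8:87502618-87502867, minus strand: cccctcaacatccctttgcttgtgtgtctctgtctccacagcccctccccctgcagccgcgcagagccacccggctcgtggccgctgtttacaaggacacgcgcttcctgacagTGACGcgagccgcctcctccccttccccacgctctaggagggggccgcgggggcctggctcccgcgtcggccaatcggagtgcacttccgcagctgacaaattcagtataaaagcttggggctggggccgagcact

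Fos held TGACG at 129 to 125 and at 66 to 62 bases before the start, Fosb at 60 to 56 and Junb at 136 to 132. Jun held TGACATCA at 45 to 38 and TTACCTCA at 164 to 157 bases before the start. Among 52140 promoters of the same length, 14% held TGACG, 2.28% held TGACATCA and 0.844% held TTACCTCA. No match to TGACGTCA (1.18% of promoters), TGACTCA (4.06%) or the CArG box (1.33%) was found in the 7 windows, and the windows of Fosl1, Fosl2 and Jund held none of the searched letters. The absence of a match says only that these letters are not in this window. The top transcripts lie at chr12:86814840-86818223 (Fos, plus strand, 4 exons), chr7:19888045-19895394 (Fosb, minus, 4), chr19:5447547-5455945 (Fosl1, plus, 4), chr5:32438845-32460213 (Fosl2, plus, 4), chr4:94715725-94718913 (Jun, minus, 1), chr8:87500811-87502617 (Junb, minus, 1) and chr8:73221638-73224515 (Jund, plus, 1).

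Counts on 1 transcript of each gene summed to between 18373819 and 36492587 per library. All 8 markers of striatal spiny neurons were present, with Ppp1r1b (DARPP-32) at a mean of 440 to 565 CPM (counts-per-million, with TMM library sizes) in the 4 groups. The 8 markers of cortical glutamatergic neurons summed to 37.5 to 57.2 CPM in the acute unlesioned libraries against 18.6 to 36 CPM in the acute lesioned ones, and to 26.8 to 73.8 against 20.2 to 44.5 CPM under chronic L-DOPA. The 6 astrocyte markers summed to 252 to 267 against 297 to 357 CPM and to 239 to 257 against 280 to 321 CPM in the same order. The 6 microglia markers summed to 57 to 59.6 against 62.9 to 74.7 CPM in the acute groups and to 40.5 to 51.7 against 42.1 to 52.3 CPM in the chronic ones, and so were lower under chronic L-DOPA on both sides without overlap. In the lesioned striatum the 6 oligodendrocyte markers (2114 to 3496 against 1162 to 2098 CPM) and the 3 blood markers (4.44 to 8.58 against 1.57 to 3.03 CPM) were also lower under chronic L-DOPA without overlap. In the acute lesion comparison 3 of 6 astrocyte, 2 of 6 microglia and 1 of 6 oligodendrocyte markers were called higher, 3 of 8 cortical and 1 of 4 choroid plexus markers were called lower, and of the 8 spiny neuron markers 4 were called higher and 3 lower. In the chronic one 1 of 6 astrocyte and 1 of 8 spiny neuron markers were called higher, 1 of 3 choroid plexus markers tested was called lower, and 0 of the cortical, microglia and oligodendrocyte markers were called. The part of the astrocyte, microglia, oligodendrocyte and blood markers in the results below was not tested. The second chronic unlesioned library stood apart with 477 CPM over the 4 choroid plexus markers, where all other libraries ranged from 3.68 to 11.6 CPM. Apart from that library the choroid sum also split by treatment without overlap, with 3.68 to 5.26 CPM in the acute libraries and 8.19 to 11.6 CPM in the chronic ones, and the part of this split in the results was not tested.

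The first question was how the family answered to a first L-DOPA dose in the striatum without dopamine fibres. All 7 genes were higher on the lesioned side after acute L-DOPA, from 1.46-fold for Jund to 25.5-fold for Fosb, and no lesioned library overlapped an unlesioned one for any of them. The test was edgeR's quasi-likelihood test over all transcripts with Benjamini-Hochberg adjustment. Of the 20402 genes tested, each counted once by its top transcript, 8.16% were called higher and 7.16% lower at an adjusted p under 0.05, and in 17.1% every lesioned library lay above every unlesioned library. The median log2 fold change was 3.02 over the 7 genes and 0.02 over all genes tested. In bulk tissue, fewer cells of a type and less RNA per cell cannot be told apart.

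Fos, the founding member and the usual histological marker of activated neurons, stood at 6.77, 7.91 and 6.73 CPM in the 3 acute unlesioned libraries and at 164, 148 and 137 CPM in the lesioned ones. Its log2 fold change was 4.39 ± 0.09 (SE, adjusted p = 8.69e-11). Every lesioned library was thus far above every unlesioned one, and the lesioned libraries differed among themselves by much less than the groups. Fosb, the gene of FosB and ΔFosB, stood at 8.37, 9.31 and 9.23 CPM against 213, 228 and 242 CPM, a log2 fold change of 4.67 ± 0.08 (adjusted p = 3.78e-11).

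Fosl1 and Fosl2, which encode Fra-1 and Fra-2, rose less. Fosl1 was the least abundant member, with 92 to 372 counts in a library, and rose from 0.946, 1.05 and 1.16 CPM to 1.92, 2.58 and 3.22 CPM (log2 fold change 1.29 ± 0.17, adjusted p = 0.000456). For Fosl2 the acute unlesioned libraries held 17.6, 18.9 and 15.2 CPM and the lesioned ones 95.8, 87.4 and 77.3 CPM (2.34 ± 0.10, adjusted p = 1.21e-08). Both genes were clear of overlap, but the lesioned Fosl1 libraries spread over a wide range for so few counts.

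Of the Jun genes, Jun itself, whose protein pairs with all Fos proteins, rose from 8.09, 7.62 and 6.76 CPM to 70.1, 83.6 and 85 CPM (3.41 ± 0.09, adjusted p = 4.33e-10). Junb rose from 23.6, 28.1 and 31.2 CPM to 235, 216 and 221 CPM (3.02 ± 0.09, adjusted p = 9.89e-10). For both genes the groups were well separated. Jund, which is expressed at a steady level in most tissues, stood at 32.5, 30.9 and 37.4 CPM against 45.1, 42.8 and 58.2 CPM, a log2 fold change of 0.54 ± 0.11 (adjusted p = 0.0067). This was the smallest change of the family, and with the cortical marker level as a covariate it was 0.39 ± 0.13 and no longer called (adjusted p = 0.0606), while the other 6 genes stayed called.

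**Figure D1:**
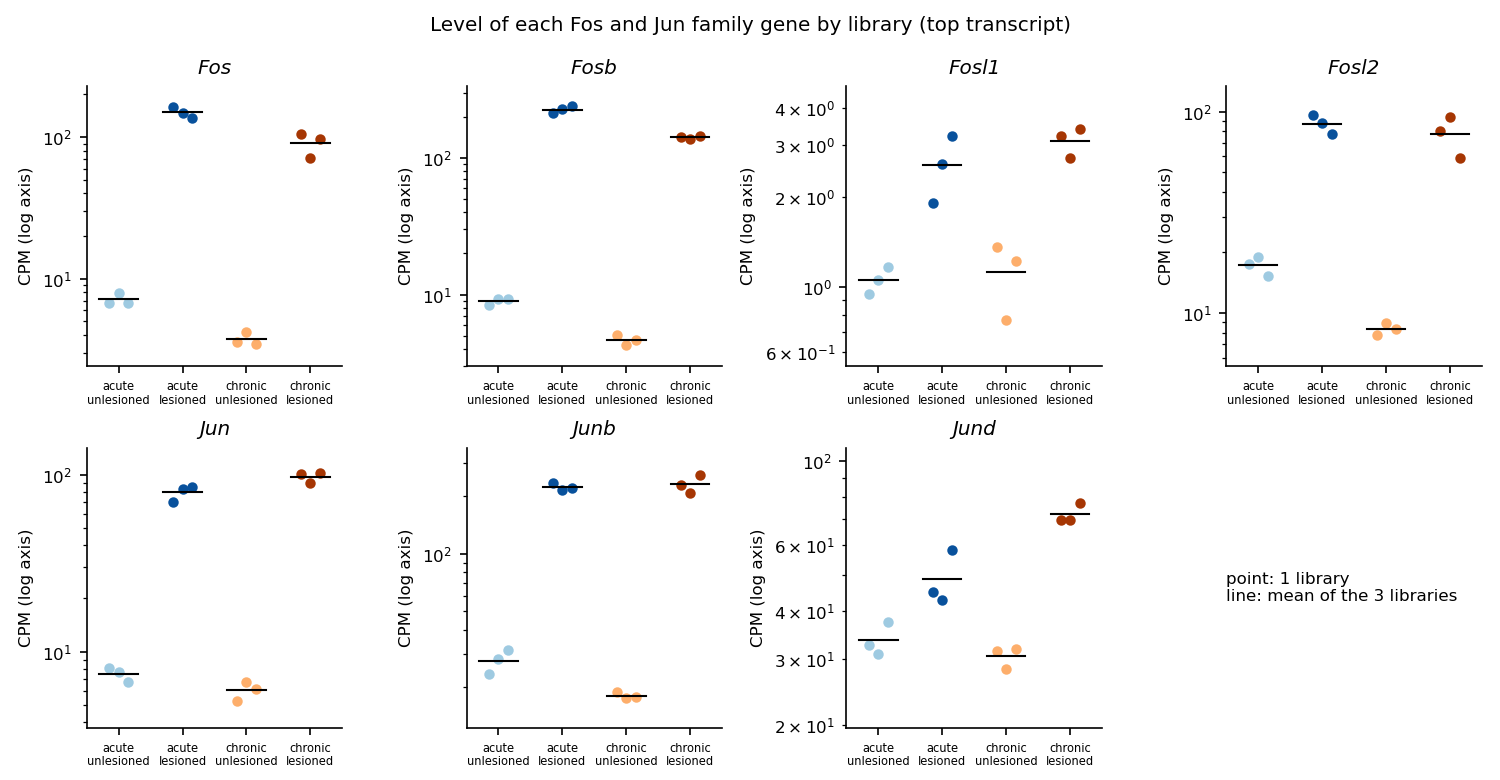
Level of the top transcript of each gene in CPM on a log axis, 1 point per library and a line at the mean of the 3 libraries of a group. Fosb runs from 4.24 CPM in a chronic unlesioned library to 242 CPM in an acute lesioned one, whereas Jund stays between 28.1 and 77.4 CPM.

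The next comparison asked whether the lesioned striatum still answered after 9 days of L-DOPA. All 7 genes were again higher on the lesioned side without overlap of libraries, from 2.37-fold for Jund to 30.8-fold for Fosb. In this comparison 8.45% of the 19741 genes tested were called higher and 5.2% lower, and in 16.5% every lesioned library was above every unlesioned one. The median log2 fold change of the family was 3.68 against -0.01 over all genes. Without the library rich in choroid plexus transcripts all 7 stayed called, with Fosb at 4.89 and Fosl1, which moved most, at 1.27.

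Fos stood at 3.58, 4.2 and 3.43 CPM in the chronic unlesioned libraries and at 106, 70.7 and 97.7 CPM in the lesioned ones (4.62 ± 0.16, adjusted p = 4.17e-08). Fosb was at 5.02, 4.24 and 4.6 CPM against 144, 138 and 145 CPM (4.94 ± 0.10, adjusted p = 6.07e-09). The lesioned Fosb libraries lay within a few CPM of each other, whereas the second lesioned library was the low one for Fos. Fosl1 was at 1.36, 0.768 and 1.22 CPM against 3.21, 2.71 and 3.39 CPM (1.48 ± 0.19, adjusted p = 0.000539), and Fosl2 at 7.76, 8.9 and 8.32 CPM against 79.8, 93.8 and 59 CPM (3.22 ± 0.16, adjusted p = 4.23e-07).

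Jun rose from 5.28, 6.75 and 6.11 CPM to 101, 89.6 and 102 CPM (4.01 ± 0.11, adjusted p = 1.28e-08). Junb, which acts as a weaker activator than Jun on many AP-1 sites, rose from 19, 17.5 and 17.8 CPM to 230, 209 and 258 CPM (3.68 ± 0.10, adjusted p = 1.28e-08). Jund rose from 31.5, 28.1 and 31.8 CPM to 69.6, 69.9 and 77.4 CPM (1.25 ± 0.09, adjusted p = 6.42e-06), and here the call held with the cortical marker level as a covariate. By fitted fold change the 7 genes stood in one order under both treatments, Fosb, Fos, Jun, Junb, Fosl2, Fosl1 and Jund, as the plot of lesion effects shows.

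**Figure D2:**
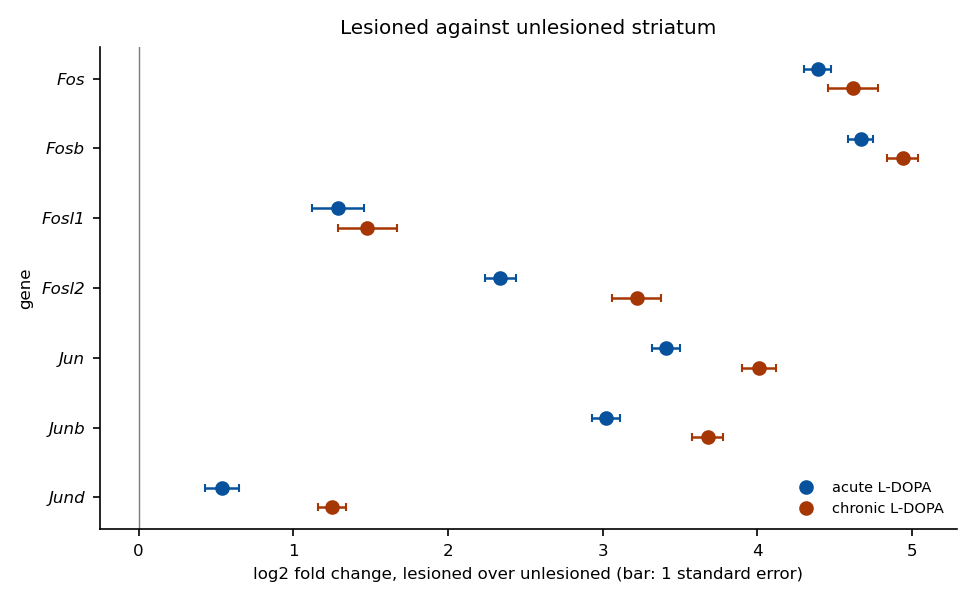
Log2 fold change of lesioned over unlesioned striatum for each gene under acute and chronic L-DOPA, with bars of 1 standard error (3 libraries against 3). Every point is called at an adjusted p under 0.05, and the chronic point is to the right of the acute point for all 7 genes, from 0.19 for Fosl1 to 0.88 for Fosl2.

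Whether the lesion effect itself differed between treatments was tested as an interaction over all 12 libraries, in which 3.53% of the 20682 genes tested were called higher under chronic L-DOPA and 1.56% lower. The lesion effect was larger under chronic L-DOPA for 4 of the 7 genes, namely Fosl2 by 0.88 ± 0.19 on the log2 scale (adjusted p = 0.016), Jund by 0.71 ± 0.15 (0.0138), Junb by 0.66 ± 0.14 (0.0108) and Jun by 0.60 ± 0.14 (0.026). Fos (0.23 ± 0.19, adjusted p = 0.55), Fosb (0.28 ± 0.11, adjusted p = 0.169) and Fosl1 (0.19 ± 0.28, adjusted p = 0.77) did not pass the test. With the replicate number as a block, Fosb passed as well (0.28 ± 0.08, adjusted p = 0.0425). The call of Jun was lost when any of 6 of the 12 libraries was left out, with an adjusted p of 0.0628 to 0.0796, and its difference then was 0.52 to 0.60.

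How the levels moved between treatments was then read on each side of the brain. These comparisons share their libraries with the lesion comparisons above. In the lesioned striatum, 12.5% of the 19790 genes tested were called higher under chronic than under acute L-DOPA and 13.1% lower, so calls were frequent, and the microglia, oligodendrocyte, blood and choroid plexus markers named above moved with the treatment. Fos and Fosb were lower, by -0.71 ± 0.13 (adjusted p = 0.00441) and -0.68 ± 0.08 (adjusted p = 0.000191) on the log2 scale, and Jund was higher by 0.57 ± 0.11 (adjusted p = 0.00516). For these genes no chronic lesioned library overlapped an acute one. The share of all genes so separated between treatments was not worked out, so this separation is given as a description only.

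Jun was higher by 0.29 ± 0.09 in the lesioned striatum under chronic L-DOPA (adjusted p = 0.0411). That call was lost without acute lesioned replicate 1 (0.21, adjusted p = 0.149) or 2 (0.33, 0.0761), without chronic lesioned replicate 1 (0.27, 0.137) or 3 (0.26, 0.113), and with the cortical marker level as a covariate (0.30, 0.055). Junb (0.05 ± 0.09, adjusted p = 0.713), Fosl2 (-0.16 ± 0.14, adjusted p = 0.444) and Fosl1 (0.28 ± 0.17, adjusted p = 0.265) did not pass the test, and their libraries overlapped.

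In the unlesioned striatum only 1.07% of the 20292 genes tested were called higher under chronic L-DOPA and 1.99% lower, and 4 of the 7 members were among the lower ones. The microglia markers were lower and the choroid plexus markers higher here too. Fosl2 was lower by -1.05 ± 0.09 (adjusted p = 0.0017), Fosb by -0.96 ± 0.08 (0.0017), Fos by -0.93 ± 0.10 (0.00495) and Junb by -0.61 ± 0.09 (0.0144), each without overlap of libraries. Here too the share of all genes so separated was not worked out. Jun (-0.31 ± 0.10, adjusted p = 0.121), Jund (-0.14 ± 0.08, adjusted p = 0.356) and Fosl1 (0.09 ± 0.19, adjusted p = 0.832) did not pass. Junb lost its call without acute unlesioned replicate 2 (adjusted p = 0.0767) or chronic unlesioned replicate 3 (adjusted p = 0.0544), and Jun gained one without the library rich in choroid plexus transcripts (-0.40, adjusted p = 0.0211).

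**Figure D3:**
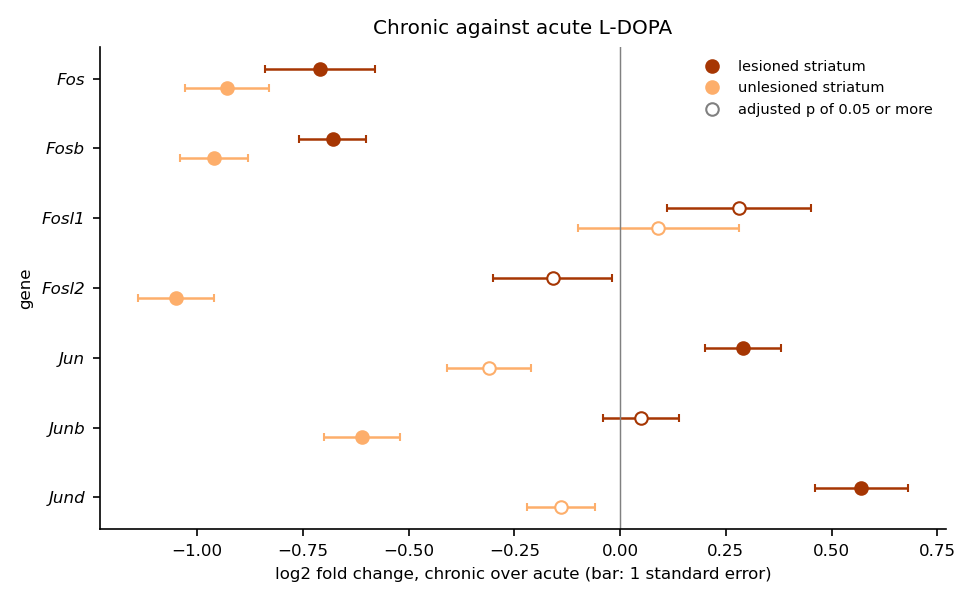
Log2 fold change of chronic over acute L-DOPA in the lesioned and the unlesioned striatum, with bars of 1 standard error (3 libraries against 3) and open points where the adjusted p was 0.05 or more. Fos and Fosb lie below 0 on both sides, Fosl2 and Junb are called lower in the unlesioned striatum alone, and Jun and Jund are called higher in the lesioned striatum.

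The group means give both sides next to each other. For Fosl2 the mean went from 17.2 ± 1.89 to 8.32 ± 0.571 CPM (SD, n = 3) in the unlesioned striatum and from 86.8 ± 9.24 to 77.6 ± 17.5 CPM in the lesioned one. Junb went from 27.7 ± 3.81 to 18.1 ± 0.797 CPM and from 224 ± 9.77 to 232 ± 24.7 CPM. Jund, in contrast, went from 33.6 ± 3.36 to 30.5 ± 2.06 CPM in the unlesioned and from 48.7 ± 8.31 to 72.3 ± 4.46 CPM in the lesioned striatum. Fosb went from 8.97 ± 0.521 to 4.62 ± 0.39 CPM and from 228 ± 14.5 to 142 ± 3.51 CPM, so it was lower under chronic L-DOPA on both sides.

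Levels of different genes were compared per length, as CPM per kb of transcript. Summed over the 7 genes they came to 38.6 ± 2.69 CPM per kb in the acute unlesioned libraries and 313 ± 5.75 in the acute lesioned ones (SD, n = 3), and to 27.5 ± 0.828 and 280 ± 22.1 under chronic L-DOPA. Junb and Jund led in the unlesioned striatum, with 15.3 ± 2.11 and 11.7 ± 1.17 CPM per kb in the acute group and 10 ± 0.441 and 10.6 ± 0.714 in the chronic group, where their libraries overlapped. Fosl1 was last in all 4 groups, at 0.565 to 1.67 CPM per kb. The orders and shares here rest on top transcripts. Another Jund transcript, ENSMUST00000165353, has 1561 bases against 2878 for the top one. It held 17.5 ± 1.72 and 26.4 ± 4.62 CPM per kb in the acute unlesioned and lesioned groups. In the chronic ones it held 16 ± 1.03 and 40.1 ± 2.59. By these means Jund would stand above Junb in both unlesioned groups and above Jun and Fosb in the chronic lesioned one.

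After acute L-DOPA the order in the lesioned striatum was Junb (124 ± 5.41 CPM per kb), Fos (70.9 ± 6.38), Fosb (60.3 ± 3.84), Jun (25 ± 2.58), Jund (16.9 ± 2.89), Fosl2 (14.8 ± 1.58) and Fosl1, and only Jund and Fosl2 overlapped as neighbours. After chronic L-DOPA the same genes held the same places, with Fos (43.5 ± 8.84) and Fosb (37.6 ± 0.93) the only neighbours that overlapped. In the acute unlesioned group the pairs that overlapped were Fos with Fosl2 and Fosb with Jun, and in the chronic unlesioned group they were Jund with Junb, Jun with Fos and Fosl2 with Fosb.

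The 4 Fos genes made up 24.1% ± 2.31 of the summed level in the acute unlesioned libraries, 47% ± 0.95 in the acute lesioned, 18.2% ± 0.648 in the chronic unlesioned and 34.3% ± 1.9 in the chronic lesioned ones (SD, n = 3), the rest being the Jun genes. Thus the Fos share ranged from 46 to 47.7% in the acute lesioned libraries and from 32.4 to 36.2% in the chronic lesioned ones, with no overlap. Junb had 39.6% ± 1.03 and 45.8% ± 1.85 of the sum in the lesioned groups, acute and chronic, and Jund 5.4% ± 0.917 and 8.98% ± 0.54. These shares are a description of the same counts, depend on the transcript taken for Jund and were not tested.

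**Figure D4:**
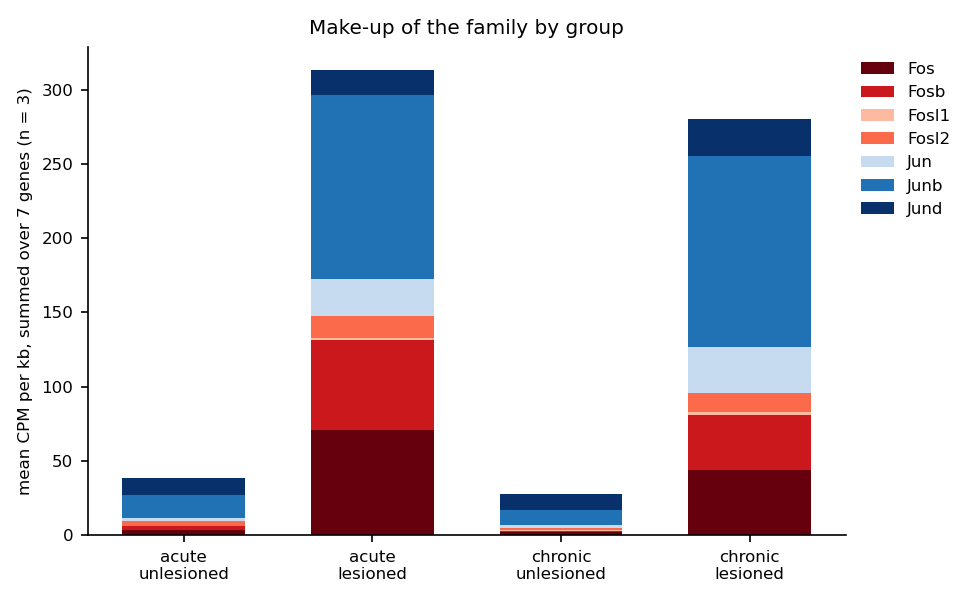
Mean level per length (CPM per kb, n = 3 libraries) of the 7 genes stacked for each group, Fos genes in reds below and Jun genes in blues above. The stacks reach 38.6 and 313 under acute and 27.5 and 280 CPM per kb under chronic L-DOPA, and the red portion of the lesioned stack is smaller under chronic L-DOPA.

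Fosb has 3 transcripts in the table, all on the minus strand of chromosome 7. NM_008036 is the spliced form with 4 exons (chr7:19888045-19895394), and the table has no transcript for ΔFosB, so FosB and ΔFosB cannot be told apart here. AK154373 is a single block (chr7:19893739-19895393) with 739 bases of exon and 916 bases of the first intron, and AK171181 is a single block (chr7:19891765-19895355) with 1130 bases of exon and 2461 of intron. Reads that fall on several transcripts count for each of them, and thus the 3 share their exonic reads.

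All 3 Fosb transcripts were called higher in the lesioned striatum under both treatments, and the blocks with intron had larger log2 fold changes than the spliced form. For AK171181 under chronic L-DOPA the margin was small, as the spliced form had 4.94 ± 0.10. Reads on the exon and the intron of a block were not counted apart. Under acute L-DOPA the log2 fold change was 5.46 ± 0.09 for AK154373 and 5.10 ± 0.10 for AK171181, and under chronic L-DOPA 5.82 ± 0.12 and 5.10 ± 0.10. In the lesioned striatum they were lower under chronic than acute L-DOPA by -0.92 ± 0.08 (adjusted p = 3.85e-05) and -0.94 ± 0.08 (adjusted p = 4.29e-05), and all 3 were also called lower in the unlesioned striatum, AK154373 by -1.28 ± 0.17 (adjusted p = 0.0107).

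The counts of AK154373 as a percentage of those of NM_008036 were 10.1, 10.5 and 10.1 in the acute unlesioned libraries and 17.4, 17.4 and 18.2 in the lesioned ones. After chronic L-DOPA they were 8.99, 8.86 and 6.87 against 14.6, 15.3 and 15.1. The 4 groups did not overlap, and each of the 4 comparisons gave p = 0.10 in a two-sided exact permutation test, the smallest that 3 libraries against 3 allow. For AK171181 the percentage was 37.6 ± 1.37 in the acute lesioned and 31.3 ± 0.565 in the chronic lesioned libraries, against 28 ± 1.14 and 28.3 ± 3.47 in the unlesioned ones (SD, n = 3), and the chronic groups overlapped (p = 0.40, exact permutation test).

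Fosl2 has 5 transcripts. NM_008037 (chr5:32438845-32460213, plus strand, 4 exons), AK089371 and AK145822 are spliced, AK162508 is a single block of 2510 bases within the last part of the gene, and AK133710 is a short block at the gene's start that the table puts on the opposite strand. The 5 moved alike, with log2 fold changes of 2.27 to 2.34 under acute and 3.11 to 3.25 under chronic L-DOPA, all called, and 5 of 5 were called lower under chronic L-DOPA in the unlesioned striatum (-1.08 to -0.95). The difference of the lesion effects was called for 4 of them (0.87 to 0.92), the exception being AK133710 (0.81 ± 0.24, adjusted p = 0.0698). The library kit does not mark the strand, so the reads on AK133710 cannot be told apart from those of Fosl2.

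Over the 8 transcripts of both genes, all 8 were called higher in the lesioned striatum under each treatment, 3 were called lower under chronic L-DOPA in the lesioned striatum (the 3 of Fosb), 8 were called lower in the unlesioned striatum, and 4 had a called difference of lesion effects. These transcripts come from 2 genes and share reads, so they are not 8 separate results. Of all genes, 8.16% were called higher in the acute and 8.45% in the chronic lesion comparison, 13.1% and 1.99% were called lower under chronic L-DOPA in the lesioned and the unlesioned striatum, and 3.53% had a larger lesion effect under chronic L-DOPA. The count of 8 in the unlesioned striatum came to 5 without acute unlesioned replicate 2. The count of 4 came to 2 without acute unlesioned replicate 2, acute lesioned replicate 3, chronic unlesioned replicate 1 or chronic lesioned replicate 1. Counts of AK162508 stayed at 42.3 to 43.2% of those of NM_008037 in the group means. This block holds 2510 bases of exon and 0 of intron, so it is no like comparison for the Fosb blocks. AK133710, with 334 bases of exon and 382 of intron, stayed at 9.44 to 10.3%.

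A further clone, AK143311, lies wholly within an intron of Fosl2 on the same strand (chr5:32439289-32442017) under its own name. It held 302, 229 and 313 counts in the acute lesioned libraries, 6, 7 and 7 in the acute unlesioned, 28, 29 and 18 in the chronic lesioned and 2, 4 and 4 in the chronic unlesioned ones. Relative to NM_008037 this was 3.06% ± 0.692 in the acute lesioned group and 0.269 to 0.321% in the means of the other 3 groups. Its log2 fold change was 5.84 ± 0.19 under acute and 3.18 ± 0.42 under chronic L-DOPA, and it was lower by -3.40 ± 0.20 under chronic L-DOPA in the lesioned striatum (adjusted p = 1.7e-06), where Fosl2 itself did not pass the test. The lesion effect thus differed in the opposite direction to that of Fosl2, by -2.66 ± 0.60 (adjusted p = 0.0196), a call that was lost without chronic unlesioned replicate 2 or 3 (highest adjusted p = 0.0896).

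**Figure D5:**
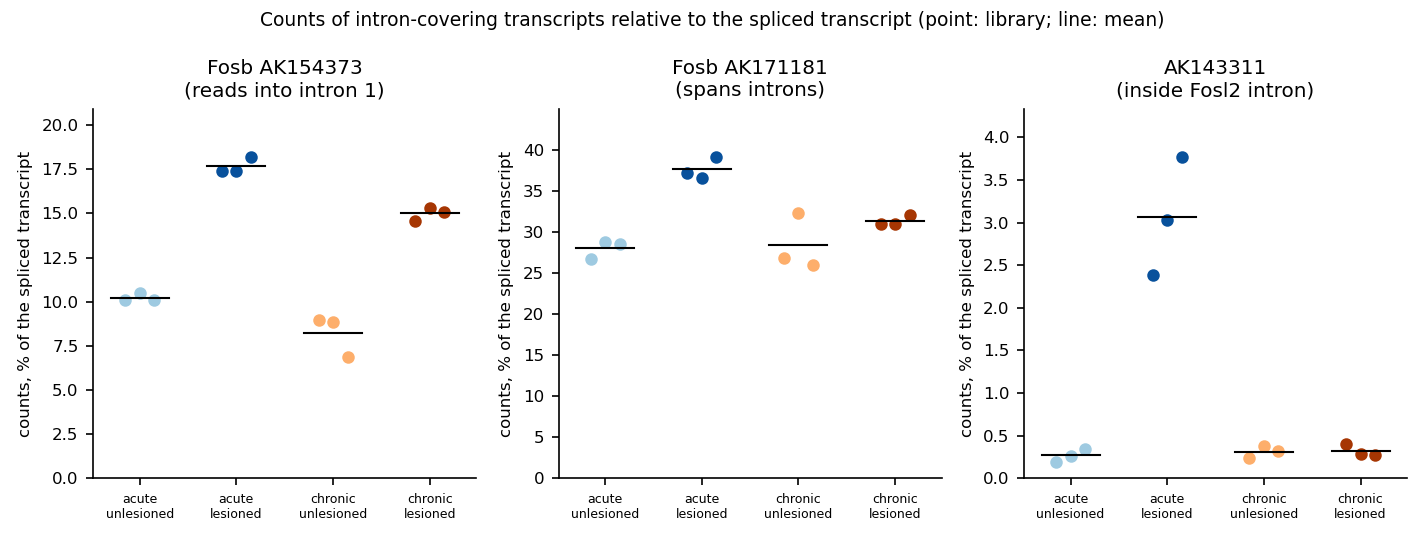
Counts of 3 transcripts that cover intron as a percentage of the counts of the spliced transcript (NM_008036 for Fosb, NM_008037 for Fosl2), 1 point per library and a line at the mean of 3. The acute lesioned libraries are highest in each panel, at 17.4 to 18.2% for AK154373 and 2.39 to 3.77% for AK143311.

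Similar acute lesioned counts were seen beyond the ends of 2 members, in features that were chosen after their values were seen. AK132834, on the strand of Fosb and 1.93 kb beyond its end, held 87, 54 and 90 counts in the acute lesioned libraries, 0 in all acute unlesioned ones and at most 2 in any chronic library, so it was at least 34.7-fold higher in the acute lesioned than in the acute unlesioned striatum (floor of 3 counts per library). Ppm1n, 22.6 kb beyond Fosb, held 33, 32 and 61 counts in the acute lesioned libraries and at most 1 in any other. Gm16486 is on the strand of Jund, and 1 of its transcripts overlaps Jund, but its top transcript starts 7.54 kb beyond it. That top transcript held 118, 82 and 124 counts in the acute lesioned libraries and 1 to 21 in the chronic lesioned ones. In the unlesioned libraries it held 1 to 4 counts under acute and 1 under chronic L-DOPA.

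Other annotated genes overlap members on the opposite strand. Gm11175 overlaps Jund by 2343 bases, and its log2 fold changes of 0.50 ± 0.11 and 1.17 ± 0.09 under acute and chronic L-DOPA stood beside 0.54 and 1.25 for Jund. Its acute call was lost with the cortical covariate (highest adjusted p = 0.0794). BC042782 overlaps the start of Jun by 689 bases and changed by 3.29 ± 0.12 and 4.07 ± 0.17. Ccdc85b overlaps Fosl1 by 2759 bases and did not pass the test (0.29 ± 0.09, adjusted p = 0.0594, and 0.19 ± 0.10, adjusted p = 0.252). Without strand, reads in these overlaps cannot be assigned to either gene.

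Partners of the family were taken from a list of 14 other bZIP genes, 13 of which were tested. Under acute L-DOPA 5 were called higher and 0 lower in the lesioned striatum, beside 8.16% and 7.16% of all genes, and under chronic L-DOPA 4 and 0, beside 8.45% and 5.2%. The median log2 fold change of the list was 0.15 and 0.01, against 0.02 and -0.01 over all genes. Atf3, a stress-induced factor that dimerises with Jun proteins, went from 0.565 ± 0.159 to 14.9 ± 3.1 CPM (log2 fold change 4.73 ± 0.19, adjusted p = 8.26e-09) and under chronic L-DOPA from 0.217 ± 0.0244 to 6.09 ± 1.61 CPM (4.80 ± 0.23). Maff, a small Maf protein, changed by 1.97 ± 0.26 and 1.97 ± 0.18. In the lesioned striatum Atf3 (-1.29 ± 0.19, adjusted p = 0.00109) and Maff (-0.93 ± 0.13, adjusted p = 0.000844) were lower under chronic L-DOPA, among 3 of 13 partners called lower and 0 called higher. In that comparison 13.1% of all genes were called lower and 12.5% higher, so the count is given as a description only. Atf3 was also lower in the unlesioned striatum (-1.37 ± 0.24, adjusted p = 0.0213), a call lost without acute unlesioned replicate 1 or 2 or chronic unlesioned replicate 1 or 3 (highest adjusted p = 0.0997).

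Of 21 kinases and factors that act upstream of the family, 3 were called higher and 4 lower in the acute lesioned striatum, beside 8.16% and 7.16% of all genes, and 3 and 1 in the chronic one, beside 8.45% and 5.2%. The chronic counts lie near these shares, and the median log2 fold change of the list was -0.04 and -0.03. Srf, which binds the CArG box, rose by 0.99 ± 0.07 (adjusted p = 2.4e-06) and 0.96 ± 0.08, and Crem, a cAMP-responsive factor, by 0.88 ± 0.13 and 1.51 ± 0.12. Rps6ka5, the gene of the kinase Msk1, fell by 0.43 ± 0.07 (adjusted p = 0.00219) and 0.55 ± 0.09. Elk1, a partner of Srf, was called lower under acute L-DOPA (-0.28 ± 0.08, adjusted p = 0.0317), but not without acute unlesioned replicate 2 or 3, without acute lesioned replicate 1 or 2, or with all 12 libraries in 1 fit (highest adjusted p = 0.115). Between treatments in the lesioned striatum, 3 genes of the list were called higher under chronic L-DOPA and 1 lower, beside 12.5% and 13.1% of all genes, which is near the background. Map2k4, a kinase that activates Jnk, was higher by 0.34 ± 0.08 (adjusted p = 0.0104). The lower one was Mapk3 (-0.32 ± 0.07, adjusted p = 0.0104), whose call was lost without chronic lesioned replicate 1 (adjusted p = 0.0501).

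Of 5 genes of AP-1 turnover, Fbxw7, the substrate receptor of a ubiquitin ligase for Jun, fell by 0.41 ± 0.06 under acute (adjusted p = 0.000843) and 0.51 ± 0.11 under chronic L-DOPA (adjusted p = 0.0105), the latter call being lost with the cortical covariate and without chronic lesioned replicate 3. Itch, another ubiquitin ligase for Jun proteins, was called lower under chronic L-DOPA (-0.29 ± 0.08, adjusted p = 0.0385), but not without any 1 of the 6 chronic libraries or with the cortical covariate (highest adjusted p = 0.2). With 5 genes and 7.16% and 5.2% of all genes called lower in the acute and chronic comparisons, these calls describe single genes and not the list.

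A list of 20 genes described as targets of AP-1 or FosB gave 16 tested genes under acute L-DOPA, of which 4 were called higher and 2 lower, and 17 under chronic L-DOPA, with 7 higher and 1 lower. Of all genes, 8.16% were called higher and 7.16% lower under acute L-DOPA, and 8.45% and 5.2% under chronic L-DOPA. The targets' median log2 fold change was 0.07 and 0.40, against 0.02 and -0.01 over all genes. Pdyn, the gene of prodynorphin, was lower in the acute lesioned striatum (18.1 ± 0.891 against 30.7 ± 1.92 CPM, -0.76 ± 0.07, adjusted p = 1.35e-05) and higher in the chronic one (184 ± 8.12 against 32.6 ± 7.32 CPM, 2.50 ± 0.15, adjusted p = 1.77e-06). The lesion effect on Pdyn differed by 3.26 ± 0.17 (adjusted p = 1.05e-07) and that on Th, tyrosine hydroxylase, by 2.72 ± 0.22 (adjusted p = 3.72e-06). A link of these changes to any member was not tested. Nts, neurotensin, rose by 1.71 ± 0.20 and 1.72 ± 0.34 under acute and chronic L-DOPA, and Vim, vimentin, by 1.16 ± 0.17 and 1.06 ± 0.14. Gria2, a glutamate receptor subunit, was called lower by -0.24 and -0.46, calls lost under 7 and 5 of 16 alternatives, among them the cortical covariate.

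The genes whose levels ran most like those of the members over the 12 libraries were named by Pearson's r of log2(CPM + 0.5) among 12784 genes, as a description, since the 4 groups fix most of the variation. Gadd45g (0.9968), Egr4 (0.9960) and Egr2 (0.9955) were nearest to Fos, and Egr4 (0.9968), Egr2 (0.9958) and Nr4a1 (0.9935) to Fosb. Nearest to Fosl2 were Vps37b (0.9877), Arc (0.9872) and Egr2 (0.9831), and to Junb Egr2 (0.9959), Tiparp (0.9948) and Nr4a1 (0.9943).

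Jun was nearest to Arl5b (0.9955), Nr4a3 (0.9945) and Arid3b (0.9934), which like Jun had a higher mean in the chronic than in the acute lesioned libraries: Nr4a3, an orphan nuclear receptor, had 79.9 ± 2.68 CPM in the acute and 119 ± 11.5 CPM in the chronic lesioned group. For Jund the nearest were Dot1l (0.9848), Vgf (0.9780) and Rgag4 (0.9757), with Dot1l, a histone methyltransferase, at 20.4 ± 2.11 and 32.9 ± 3.43 CPM in the same groups. Fosl1 had lower values throughout, with Arih2 (0.9717), Grasp (0.9681) and Gm13889 (0.9677). Between members, r was highest for Fos with Fosb (0.997) and lowest for Fos with Jund (0.819).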

How the data were processed

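RNA-seq counts of 12 striatal libraries (4 groups of 3) were analysed. Per the labels and the study's methods, the authors made TruSeq libraries, sequenced them on a Genome Analyzer II, mapped the reads to mm9 with the Genomatix Mining Station and counted them per transcript; the deposited counts are raw, and a read counts on every transcript it overlaps. The kit does not mark the strand. The authors also deposited a length- and depth-normalized expression signal, used here only to check the unit. Their DESeq comparison tables, which hold p-values and fold changes, and 36 further columns of per-sample values were not used. Transcripts without a gene name (296, with 0.0485% of counts) were left out.

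Each comparison was fitted over all transcripts with edgeR 4.0.16 (filterByExpr, TMM, quasi-likelihood test) in R 4.3.3, Benjamini-Hochberg adjusted, with calls at 0.05. The alternatives were DESeq2 1.42.0, other size factors, filters and units, a fit of all libraries, a replicate block, a cortical marker covariate, removal of a GC content and length trend (added after seeing the data) and leaving out each library. CPM used TMM library sizes. The test was checked on simulated data. One gene of the pathway lists is counted with its list but is not reported here by name.

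The members and lists were chosen with earlier results of these data known. Named genes were the 7 members, every transcript of Fosb and Fosl2, up to 2 called rises and 2 called falls per list and comparison with a mean of at least 1 CPM, the 3 likest genes of each member and genes that overlap a member. The features beyond the ends of Fosb and Jund were named in addition, after their values were seen. Libraries with the same number deviated together between the hemispheres (correlations of 0.390 to 0.478 under acute and 0.153 to 0.566 under chronic L-DOPA), and their numbers were taken to pair the hemispheres from the data, since the labels do not say so. Between treatments the numbers did not pair the libraries. Replicates differed by more than sampling noise (chi-square per degree of freedom of 5.41 to 19.7).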

Additional observations from a re-analysis of the deposited data

Results flagged for a closer look

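The lesion effect differed between chronic and acute L-DOPA, by a test of the difference itself on the log2 scale, for Fosl2 by 0.88 (transcripts AK089371 0.87, AK145822 0.88 and AK162508 0.92), for Jund by 0.71, for Junb by 0.66 and for Jun by 0.60. Of the genes around the family or on its lists, the effect was larger under chronic L-DOPA for Th by 2.72, Pdyn by 3.26 and Gm11175, which overlaps Jund, by 0.67. The call of Gm11175 was lost without acute unlesioned replicate 3, acute lesioned replicate 1 or 2 or chronic lesioned replicate 3 (highest adjusted p = 0.0675, edgeR quasi-likelihood test). The intronic clone AK143311 went the other way, by -2.66.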

How the results depend on the processing

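The 7 members kept their direction and call in 607 of 630 alternative values, 16 lost the call, 3 gained one and 4 changed sign. Leaving out 1 library in turn gave 7 called members in both lesion comparisons, 3 to 4 in the lesioned striatum between treatments, 3 to 5 in the unlesioned striatum and 3 to 4 for the difference of the lesion effects. For the 8 Fosb and Fosl2 transcripts the counts were 8, 8, 3 to 4, 5 to 8 and 2 to 5 in the same order. With the replicate block the members called were 7, 7, 3, 4 and 5 and the transcripts 8, 8, 3, 8 and 6. The block cost Jun its call in the lesioned striatum (0.30, adjusted p = 0.0617, edgeR) and changed no other member's call between treatments, where the numbers do not pair the libraries.

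Signs changed only when a library was left out, and only for values that did not pass the test. Between treatments in the lesioned striatum, Fosl2 came to 0.00, Junb to -0.03, AK162508 to 0.01, AK089371 to 0.07 and AK145822 to 0.08 without chronic lesioned replicate 3, and AK145822 to 0.02 without acute lesioned replicate 1. In the unlesioned striatum Fosl1 came to -0.06 without chronic unlesioned replicate 1. The ranges over all leave-outs were -0.32 to 0.00 for Fosl2, -0.03 to 0.13 for Junb, -0.32 to 0.01 for AK162508, -0.24 to 0.07 for AK089371, -0.20 to 0.08 for AK145822 and -0.06 to 0.29 for Fosl1. For the difference of the lesion effects, Fosl1 came to -0.01 without chronic unlesioned replicate 2, and Fosb AK171181 to -0.01, -0.03, -0.04 or -0.05 under 6 of the leave-outs, with highest values of 0.39 and 0.09. The cause was not tested. Fosl1 rests on the fewest counts of the family, and precision elsewhere is set by 3 libraries a group.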
